A study of Mus musculus with 35 samples.

Results

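Ribosomal protein genes encode the protein part of the cytoplasmic ribosome, and 31 of them were measured in mouse bone marrow stem cells and T cells. They were taken as the genes with a probe set assigned to a single symbol of the form Rpl or Rps and a number, Rplp and a number, or Rpsa, with 1 probe set kept for each gene, the one of highest mean log2 intensity over all arrays. This gave 31 of 8251 genes on the MG-U74Av2 array, 16 of the small subunit and 15 of the large. They held 44 of 12422 probe sets, and a further 38 probe sets carried a ribosomal protein symbol among several genes and were only counted.

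The study asked how populations of stem cells and single stem cells differ in the genes they express. All cells came from the bone marrow of young adult C57Bl/6 CD45.1 mice, with no treatment or transgene given in the labels or methods, labelled male for nearly all samples, and the methods describe the femora and tibiae of 1 mouse for each sort. The side population (SP) was defined by efflux of a Hoechst dye, with a gate that kept Sca-1+ cells and left out Gr-1+ cells, so it is a fraction enriched for stem cells and not a pure one. Lower SP (LSP) cells came from the bottom of the SP tail, which effluxes most dye, and upper SP (USP) cells from its top, without overlap. The CD8 group held T cells of the marrow, positive for CD3 and CD8. For these 3 populations 4 amplifications of 10 cells each were pooled into 1 sample, and each of the 3 LSP, 3 USP and 3 CD8 samples was hybridised to 2 arrays. In addition, 12 single SP cells (SC) from the tip of the tail had 1 array each, against 5 single-cell equivalents (SCE), aliquots of 1 lysate of 40 SP cells each holding the RNA of about 1 cell. The study assumes that SCE carry technical spread alone, and that single cells carry it and the spread between cells. This premise was not tested here.

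A ribosome has a small subunit, which binds the mRNA and decodes it, and a large subunit, which joins the amino acids. Each subunit needs its proteins in fixed proportion, and many ribosomal protein mRNAs begin with a C followed by a run of pyrimidines, the terminal oligopyrimidine (TOP) tract, through which mTOR signalling controls their translation. In blood formation the genes are known from Diamond-Blackfan anemia, in which people carry loss-of-function changes in RPS19, RPS24, RPS10 and other ribosomal protein genes and fail to make red cells, and from the 5q- syndrome, where RPS14 is lost.

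The start sites of the genes that the results turn on follow, from RefSeq on the mouse build GRCm38.p6, with the 45 bases before the outermost annotated start and the first 20 bases of the gene. Capitals mark the longest run of at least 7 C or T bases that begins with C. Rps10, Rps24 and Rps19 differed between SP and CD8 cells, Rps18 is a small subunit gene that lay the same way without a call, Rps27 was seen in few single cells, and Rpl13a had the widest spread among the widely detected genes.
Rps10, chr17:27635225-27635289, minus strand: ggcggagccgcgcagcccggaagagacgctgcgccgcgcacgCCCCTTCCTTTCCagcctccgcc
Rps24, chr14:24490633-24490697, plus strand: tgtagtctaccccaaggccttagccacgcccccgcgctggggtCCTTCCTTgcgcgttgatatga
Rps19, chr7:24884547-24884611, plus strand: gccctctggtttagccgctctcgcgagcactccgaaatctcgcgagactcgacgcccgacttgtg
Rps18, chr17:33955646-33955710, minus strand: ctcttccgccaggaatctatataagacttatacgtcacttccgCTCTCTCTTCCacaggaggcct
Rps27, chr3:90213629-90213693, minus strand: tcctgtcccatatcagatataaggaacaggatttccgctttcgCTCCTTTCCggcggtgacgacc
Rpl13a, chr7:45128726-45128790, minus strand: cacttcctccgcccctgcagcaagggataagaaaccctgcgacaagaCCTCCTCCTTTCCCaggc
The window shown for Rps19 held no such run, while the runs of Rps10, Rps24, Rps18 and Rps27 lay across the start and that of Rpl13a just after it. Of the 31 genes, 25 were in the RefSeq table of promoters. Of these, 17 (68%) had such a run within 5 bases before to 50 after a start, against 25.2% of 27025 genes. Only the strand that reads like the mRNA was searched for it. Rps19 is among the 17 through a run that lies further into the gene than the bases shown. The letters CCGGAAG, the core recognised by ETS factors, stood on either strand in the 250 bases before to 50 after the start of 10 of the 25 genes (40%), against 9.93% of all genes. GGGCGG stood in 15 (60%), against 38.2%, and TATAAA in 4 (16%), against 15.7%. These matches describe the letters in a window and do not show a factor at any site. Rpl7, Rpl8, Rpl32, Rps14, Rps20 and Rps29 were not in the table.

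The deposited values were intensities, used here as log2, and a level below 7 was set to 7 in the 10-cell samples. Negative values made up 24.6 to 32.1% of 9 of the 12 SP arrays and of none of the 23 other arrays, so the kind of value goes in part with the population in SP against CD8. The remaining SP arrays were 1 of LSP B and both of USP Z. In LSP B the array with positive values exceeded its duplicate by a median of 0.40 over the 23 genes tested, against -0.29 to 0.22 between duplicates of the other samples, and the part of this in the results was not tested. The T cell markers Cd3d, Cd3g, Cd8a and Cd8b1 were under log2 9 on every SP array, and the summed intensity of 7 T cell genes was 0 to 593 in LSP and 0 in USP, against 17903 to 18486 in CD8. In this sum and those below low intensities counted as 0, so a sum of 0 is not an absence of signal. The 5 stem cell genes with a probe set summed to 3881 to 7091 in LSP and 5094 to 9395 in USP, and Lmo2, Tal1, Tie1 and Myb were under log2 9 on every CD8 array. Granulocyte and monocyte genes, 10 in all, summed to 1801 to 4299 in LSP and 5937 to 15485 in USP, against 0 to 1032 in CD8, with Mpo and Elane under log2 9 throughout, and 4 B cell genes to 0 to 575 in LSP and 168 to 1567 in USP, against 1323 to 3230 in CD8. The part of these other cell types in the results was not tested. Whether samples came from separate mice is not given in the labels, so the p-values below measure the spread between these samples, which may be technical in part. In 10-cell pools fewer expressing cells and less RNA per cell cannot be told apart.

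Of the 31 genes, 23 rose above log2 7 on some 10-cell array and could be tested. The other 8 (Rpl35a, Rpl38, Rpl39, Rps13, Rps14, Rps15, Rps20 and Rps29) stayed at that floor on all 18 arrays and were not detected in any single cell or SCE either. Their highest single-cell levels were between 6.72 and 8.52, under the detection level of log2 9. Rps14 is the gene of the 5q- syndrome, Rpl35a and Rps29 are anemia genes, Rpl39 is X-linked, and Rpl38 directs the translation of Hox mRNAs in mouse embryos. A floor level is a bound for this probe set and not a statement about the transcript.

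In all, 3 small subunit genes were higher in SP than in CD8 cells by limma with Benjamini-Hochberg adjustment over 6823 probe sets, and none was lower. That is 3 of 23 against a background of 2.83% of all probe sets tested, and 0 of 23 against 3.0%. All 3 are on the list of Diamond-Blackfan anemia genes, which was drawn up with earlier results of these data known. The list held 5 of the 11 small subunit genes tested, and none of its large subunit genes could be tested. The count of 3 was 7 under quantile normalization, where Rplp0, Rpl37a, Rpl8 and Rpl19 of the large subunit were added, 7 with the SP arrays of positive values alone, and 1 without CD8 D. The share of all probe sets called is not given for these settings, so a general change in calls cannot be told apart. At an unadjusted p under 0.05, 10 were higher (background 9.13%) and 2 lower (background 9.32%). In 9 of the 23, every SP sample lay above every CD8 sample (background 5.53%), and in none did every SP sample lie below (background 5.77%). The median difference of the 23 was 0.68 on the log2 scale, SP minus CD8, against 0.04 over all probe sets tested, with 17 above 0 and 6 below. The members' median was 1.08 with the SP arrays of positive values alone and 0.26 with no filter on low levels, which brings in the 8 genes at the floor.

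Rps10 sits at the mRNA side of the small subunit and is ubiquitinated when ribosomes stall. Its log2 levels were 11.94, 12.05 and 12.30 in LSP samples A, B and M and 11.69, 11.70 and 12.51 in USP samples N, O and Z, against 10.44, 10.36 and 10.55 in CD8 samples B, C and D. The lowest SP sample was more than 1 log2 unit above the highest CD8 sample, and the 3 CD8 samples lay close together. The difference was 1.59 (SE 0.21), 3.0-fold, with an adjusted p of 0.0061 by limma (n = 6 and 3).

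Rps24, another small subunit gene of the anemia, had levels of 10.73, 11.51 and 11.83 in LSP and 10.98, 10.74 and 11.67 in USP, against 9.24, 9.40 and 8.79 in CD8. The groups did not overlap, with LSP A and USP O lowest among the SP samples. The difference was 2.10 (SE 0.32), 4.29-fold, with an adjusted p of 0.0115 by limma. Its probe set is of the kind Affymetrix chose under relaxed rules, and its number lies between those of both Rpl7 probe sets. The link to Rps24 rests on GEO's platform annotation, and a second Rps24 probe set was at the floor in all 10-cell samples. Without CD8 D the adjusted p was 0.0509.

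Rps19, the gene most often changed in the anemia and needed to mature the 3′ end of 18S rRNA, had levels of 10.47, 11.31 and 11.48 in LSP and 10.91, 10.69 and 12.02 in USP, against 9.28, 9.40 and 8.44 in CD8. All SP samples were higher, USP Z most of all, and CD8 D was the lowest of its group. The difference was 2.11 (SE 0.40), 4.31-fold, with an adjusted p of 0.0294 by limma. The call was lost without LSP B (adjusted p = 0.0598), CD8 B (0.0805), CD8 C (0.0685) or CD8 D (0.106), and with no filter on low levels (0.0861). With the SP arrays of positive values alone, which leaves LSP B and USP Z, the differences were 1.89 for Rps10, 2.59 for Rps24 and 2.80 for Rps19, with adjusted p of 0.0142, 0.0137 and 0.0286.

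Each SP population was also set alone against CD8. Both comparisons share the same 3 CD8 samples, so their values are given side by side only. Rps10 differed by 1.65 in LSP (adjusted p = 0.0108 by limma) and 1.52 in USP (adjusted p = 0.0165), and Rps24 by 2.22 (adjusted p = 0.0192) and 1.99 (adjusted p = 0.0303). Rps19 differed by 2.05 in LSP and 2.17 in USP and passed in neither (adjusted p = 0.0614 and 0.0509). Rps10 and Rps24 were thus the 2 of 23 called higher in each, against 2.17% of all probe sets in LSP and 2.21% in USP. None was called lower in either, against 2.23% and 2.14%.

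**Figure D1:**
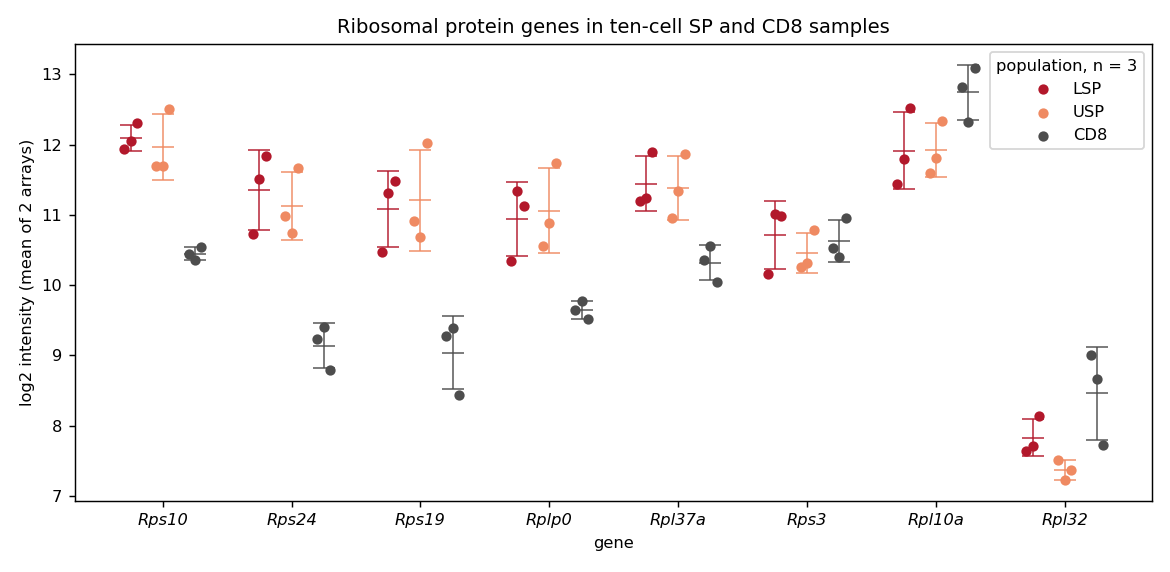
Log2 intensity of 8 ribosomal protein genes in the 10-cell samples, with 1 point per sample (2 arrays averaged) and the mean ± SD of the 3 LSP, 3 USP and 3 CD8 samples. For Rps10, Rps24 and Rps19 all SP points lie above the CD8 points, for Rps3 the groups overlap, and for Rpl10a and Rpl32 the CD8 mean is the higher one.

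Among the remaining small subunit genes none passed the adjusted threshold. Rps7 and Rps28, also anemia genes, differed by 0.68 (SE 0.30, adjusted p = 0.300 by limma) and 0.67 (SE 0.32, adjusted p = 0.344). A second Rps28 probe set gave 1.43. Rps3a1 differed by 1.63 (adjusted p = 0.0932) and Rps18 by 1.15 (adjusted p = 0.172), each with no overlap between SP and CD8 samples. With the SP arrays of positive values alone both were called by limma, Rps3a1 at 2.59 (adjusted p = 0.0296) and Rps18 at 1.93 (adjusted p = 0.0112). Rps3a1 was also called without USP Z, at 1.33 (adjusted p = 0.0291 by limma). Rps4x, the X-linked member, differed by 0.55 (adjusted p = 0.482), and a second, dimmer probe set of the gene by -0.35. Rpsa, which also serves as a laminin receptor, differed by 0.26 (adjusted p = 0.590), and Rps3, which lines the mRNA entry and also acts in DNA repair, by -0.04 (adjusted p = 0.949). Of the 11 small subunit genes tested 10 were above 0, with a median of 1.01.

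Rplp0, the base of the stalk that recruits elongation factors, had 10.34, 11.35 and 11.12 in LSP and 10.56, 10.88 and 11.73 in USP, against 9.65, 9.78 and 9.52 in CD8. The groups did not overlap, and the difference of 1.35 (SE 0.32) had an adjusted p of 0.0585 by limma. Rpl37a, of the large subunit, also kept its groups apart and differed by 1.09 (SE 0.26, adjusted p = 0.0585). Both lay just outside the threshold, and both passed under quantile normalization and with the 2 arrays of a sample as a random block. Neither passed with no filter on low levels (adjusted p = 0.154 for Rplp0 and 0.147 for Rpl37a by limma). With each sample left out in turn, Rplp0 was called in 1 of 9 fits and Rpl37a in 0 of 9.

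Rpl10a, in the L1 stalk where the spent tRNA leaves, had the opposite sign, with 11.44, 11.79 and 12.52 in LSP and 11.59, 11.82 and 12.34 in USP, against 12.82, 12.32 and 13.09 in CD8. LSP M and USP Z reached into the CD8 range, and the difference of -0.83 (SE 0.30) had an adjusted p of 0.197 by limma. A second Rpl10a probe set gave -0.95. Rpl32 differed by -0.86 (adjusted p = 0.158) at levels near the floor, and without CD8 D it was called lower in SP, at -1.23 (adjusted p = 0.0227). Its probe set, like that of Rps24, is of the kind chosen under relaxed rules. Rpl22, without which αβ T cells fail to develop in mice, differed by 1.42 (adjusted p = 0.215) and Rpl13a, which represses inflammatory mRNAs once released from the ribosome, by -0.57 (adjusted p = 0.340). Rpl41, the shortest ribosomal protein, differed by -0.53 (adjusted p = 0.323), and Rpl19 and Rpl8 were higher in every SP sample without a call (1.13 and 0.67). The 12 large subunit genes tested had a median of 0.46, with 7 above 0.

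**Figure D2:**
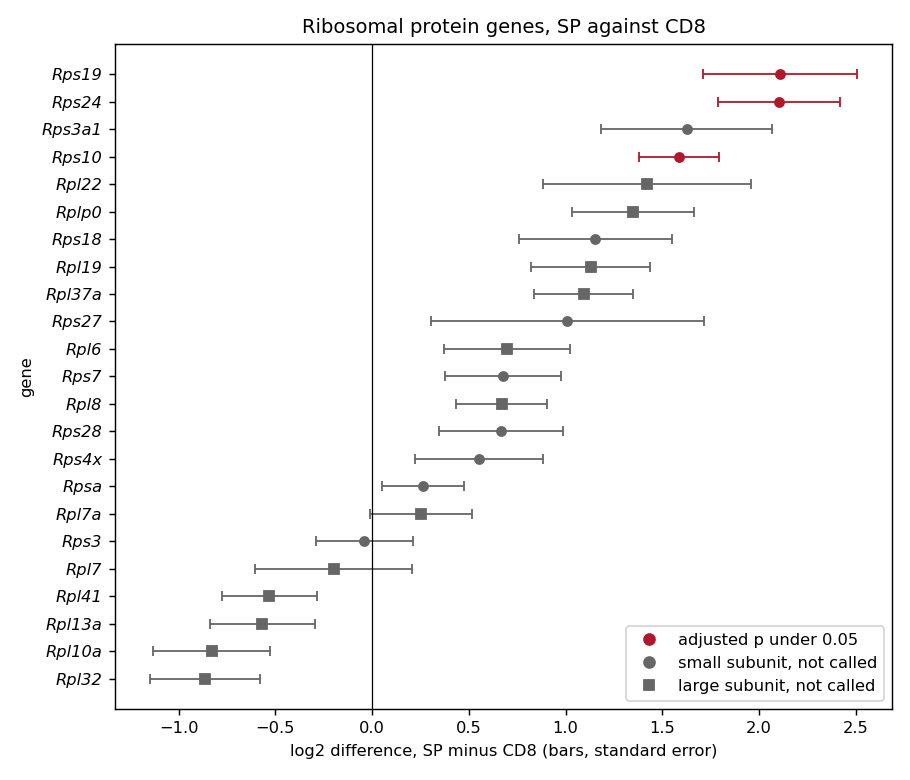
Log2 difference, SP minus CD8, of the 23 ribosomal protein genes tested, with the standard error as bars, circles for small and squares for large subunit genes, and red for an adjusted p under 0.05. The 3 red genes, Rps19, Rps24 and Rps10, lie between 1.59 and 2.11, and Rpl32 lies lowest at -0.86.

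The other genes of ribosome production were set beside them by lists, whose counts are to be read against the 2.83% of all probe sets called higher and the 3.0% called lower. Of 54 mitochondrial ribosomal protein genes tested, which serve the separate ribosome of mitochondria, 1 was higher in SP than CD8 (Mrpl24, 0.91) and 4 were lower (Mrps17, -2.47; Mrpl40, -2.34; Mrpl11, -2.19; Mrpl36, -1.90). Their median was -0.65, with 16 above 0 and 38 below. Mrps17, Mrpl36 and Mrpl40 averaged 7.61, 7.20 and 7.65 in SP, near the floor, so the sizes of these differences depend on it. Of 32 ribosome biogenesis genes, Nop58, a core protein of box C/D snoRNPs, was higher (1.14) and Pes1, which acts in large subunit maturation, was lower (-2.63), with a median of 0.11. Nop58 was at the floor in CD8 and Pes1 averaged 7.47 in SP, so the sizes of both depend on the floor. Among 13 other genes with TOP mRNAs the 1 higher call was Tpt1 (1.95), and the median was 0.48. None of the 6 genes tested from the list of S6 kinases and mTOR passed, with a median of 0.12, and none of 4 ribosomal proteins outside the symbol rule, with a median of -0.17. The 32 tested probe sets that carry a ribosomal protein symbol among several genes gave 8 higher (background 2.83%) and 0 lower calls (background 3.0%), with 28 above 0 and a median of 1.15. Ribosomal protein genes have many processed copies in the genome, so that any of these probe sets may also bind a copy.

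LSP and USP cells were compared to ask whether the ends of the SP tail differ. No ribosomal protein gene passed the threshold by limma, 0 of 23 in each direction, against 0.0293% of all probe sets higher in LSP and 0.0733% lower. At an unadjusted p under 0.05 there was 1 higher (background 3.18%) and 0 lower (background 2.81%), and the methods' t-test gave 0 in both directions at this level. The median was 0.06, LSP minus USP, against 0.00 over all probe sets, with 13 above 0 and 10 below. With each sample left out in turn it ran between -0.15 (without LSP M) and 0.30 (without USP Z).

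The 1 gene was Rps27, a small subunit protein with a zinc finger, at 8.41, 10.16 and 10.75 in LSP, against 7.0, 8.51 and 7.0 in USP. USP N and Z were at the floor, and USP O lay above LSP A. The difference of 2.27 (SE 0.81) had an adjusted p of 0.746 by limma, and its size depends on the floor. Rpl32 was the 1 gene with every LSP sample above every USP sample (background 3.09%, and none lower in every sample, background 2.89%), at 7.65, 7.71 and 8.14 in LSP, against 7.51, 7.23 and 7.37 in USP, a difference of 0.46 (adjusted p = 0.876). Rps10, Rps24 and Rps19 differed between LSP and USP by 0.13, 0.23 and -0.12, with SE of 0.24 to 0.46.

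In the single cells, 20 of the 31 genes were detected, at log2 9 or more, in all 12 cells, against 1.31% of the 8251 genes when each is read on its probe set of highest mean, the choice made for the members. That choice used these arrays, so the counts are a description. Rpl13a was detected in 11 cells, Rpl22 in 3, Rps27 in 2 and the 8 genes named above in none. The brightest on this array were Rpl41, with 14.19, 14.91 and 15.35 as lowest, median and highest level, then Rpl7, Rpl10a, Rps10, Rpl19 and Rpl8, with means from 14.10 to 13.42. The dimmest were Rps15, Rps14, Rpl39, Rpl35a, Rpl22 and Rps29, with means from 4.35 to 6.05. Intensities of different probe sets do not rank the amounts of the transcripts.

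There were 3 genes detected in some cells and missed in others. Rpl22 had 11.22, 11.06 and 12.24 in cells A, E and F and 2.66 to 5.29 in the other 9. It was not detected in any SCE, at 1.85 to 5.93. A second Rpl22 probe set was not detected in any cell or SCE. Rps27 had 11.37 in cell A and 12.20 in cell H, and was detected in SCE A (10.65) and SCE E (10.53) of 5. Rpl13a was under the level in cell B (7.55) and just over it in cell I (9.12), while the remaining cells lay between 10.90 and 13.28. Rps27 was thus as patchy among aliquots of a shared lysate as among cells, and its SD was 1.82 over cells and 1.83 over SCE.

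**Figure D3:**
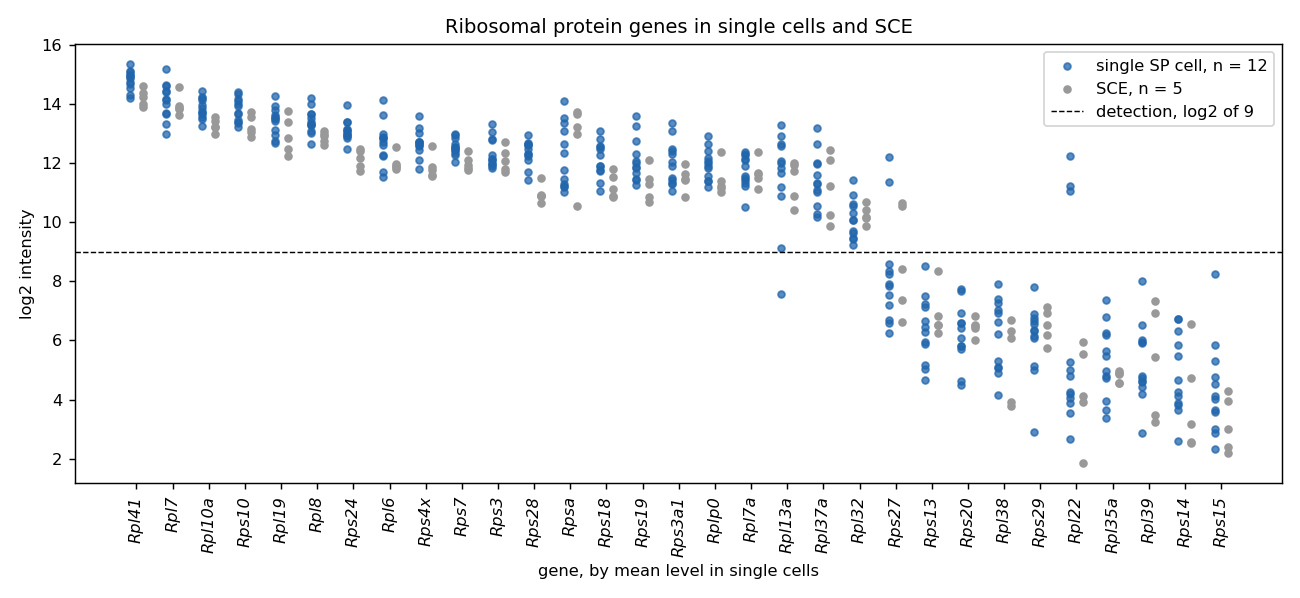
Log2 intensity of the 31 ribosomal protein genes in 12 single cells and 5 SCE, 1 point per array, with a dashed line at the detection level of log2 9. In all, 20 genes lie above the line in all 12 cells, 8 lie below it on all 17 arrays, and Rpl22, Rps27 and Rpl13a cross it.

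The levels in single cells and SCE were compared to see whether whole cells and aliquots of pooled lysate gave the same levels. No gene passed by limma, 0 of 23 in each direction, against 0% of 4659 probe sets higher and 0.0429% lower. At an unadjusted p under 0.05 there were 2 higher (background 1.76%) and 0 lower (background 3.93%). Of the 23, 20 lay above 0 and 3 below (Rpsa, -0.57; Rps27, -0.48; Rpl32, -0.14), and the median was 0.54, single cells minus SCE, against -0.09 over all probe sets tested. Centring each array on the 167 probe sets detected on all 17 arrays moved both medians down by the same amount, to 0.15 for the members and -0.48 over all probe sets, and so cannot change the gap of 0.63 between them. Quantile normalization gave 0.31 and -0.07, a gap of 0.38, and no filter on low levels gave 0.53 and 0.18, a gap of 0.35. The erythroid gene Hba-a1 also moved with this comparison, with a mean log2 level of 8.14 in single cells and 12.65 in SCE. It was the 1 gene of the erythroid list that could be tested. The summed intensity of 3 erythroid genes was 0 to 1340 in single cells, against 2819 to 10673 in SCE, with Alas2 and Klf1 under log2 9 on all 17 arrays. Here too low intensities counted as 0 in the sums. Other lists overlapped between single cells and SCE. The 10 granulocyte and monocyte genes summed to 0 to 8616 and 1209 to 8197, and the 4 B cell genes to 0 to 7080 and 0 to 3356. The 5 stem cell genes summed to 907 to 6715 and 3874 to 7226, with Ctla2a and Myb under log2 9 on all 17 arrays and Tal1 in all SCE. The part of these genes in the result was not tested.

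Rps24 ran from 12.49 through a median of 13.04 to 13.97 in single cells, against 11.74 to 12.49 in SCE with a mean of 12.14. Cell K, the lowest cell, lay just above SCE B, the highest SCE. It was the 1 gene with every cell above every SCE (background 0.0859%, and none below, background 0.0644%), and the difference was 0.97 (SE 0.44, adjusted p = 0.864 by limma). Rps28 averaged 12.34 ± 0.44 in single cells and 10.97 ± 0.31 in SCE (SD, n = 12 and 5). Its difference of 1.38 (SE 0.45) had the smallest p of the members, 0.00601 before adjustment and 0.571 after it in limma. A second Rps28 probe set averaged 11.30 in single cells and 10.49 in SCE, and the mean over all probe sets of the gene differed by 0.88 (adjusted p = 0.867).

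The spread among single cells was set against that among SCE to ask how much of it exceeds the technical part. For none of the 23 genes was it larger by the exact one-sided permutation test at an adjusted p under 0.05, against 0.546% of 4215 probe sets. Without adjustment 2 passed, Rpl32 (exact permutation p = 0.0446) and Rps3a1 (exact permutation p = 0.0461), against 12.5%. The share of variance assigned to differences between cells was 0.5 or more in 6 genes (Rpl6, 0.857; Rpl13a, 0.843; Rpl32, 0.814; Rpl22, 0.798; Rpl7, 0.712; Rps3a1, 0.671), against 41.6% of all probe sets. It was 0 for the median member, against 0.355 over all probe sets, but with separate means for cells and SCE these were 0.422 and 0.448, by moments 0.337 and 0.367, and under quantile normalization 0.139 and 0.422.

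The tightest genes across cells were Rps7, with an SD of 0.284 over cells and 0.254 over SCE, then Rpl41, Rpl10a, Rps24, Rps10 and Rpl8, with SD up to 0.426 over cells. The widest were Rpl13a, with an SD of 1.65 over cells and 0.70 over SCE, then Rpsa, Rpl37a, Rps19, Rps3a1 and Rpl6. Rpsa and Rpl37a spread as much among SCE, with SD of 1.07 and 0.914 over cells, against 1.30 and 1.12 over SCE. For Rpsa the spread over SCE rests largely on SCE D, at 10.55 against 12.98 to 13.71 in the other SCE. Over the 20 genes detected in every cell the median SD was 0.513 for cells and 0.383 for SCE, against 0.599 and 0.456 for all 184 probe sets detected in every cell. The SD was larger among cells for 16 of the 20, against 123 of the 184, and the share between cells was 0 for 13 of the 20, against 95 of the 184. These shares come from the model with 1 mean for cells and SCE, in which a shift between the 2 groups counts as technical. With separate means the share was 0.5 or more in 10 of the 23 genes tested, against 46.2% of all probe sets.

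Most pairs of these genes correlated from cell to cell. Over the 12 cells the median correlation among the 20 genes was 0.617, with 178 of 190 pairs above 0, against 0.135 among the 184 probe sets, of which 47 carry a ribosomal protein symbol. The pairs ran from 0.942 for Rpl19 and Rps18 to -0.337 for Rpl32 and Rpl7a. The points of each pair share a cell, an amplification and an array. The 5 SCE, which hold the same lysate, gave a median of 0.709, with 181 of 190 pairs above 0, against 0.340 among the 184 probe sets.

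Cell L stood highest, its 20 genes lying at a median of 0.97 above their means over the 17 arrays, and cell J was at 0.64, while cell A was at -0.48 and cell K at -0.37. Among the SCE, SCE C was lowest at -0.63 and SCE B highest at 0.13. The members' median went with the median of 121 always-detected probe sets that carry no ribosomal protein symbol (r = 0.629 over 12 cells). Once each array was centred on those 121 probe sets, the median correlation was 0.472 over cells, with 170 of 190 pairs above 0, and -0.03 over SCE, with 89 of 190. Centred on all 167 always-detected probe sets, 46 of which carry a ribosomal protein symbol, it was 0.108 over cells and -0.05 over SCE. After centring on the 121, cells J and L were still highest at 0.53 and 0.58 and cell A lowest at -0.56.

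**Figure D4:**
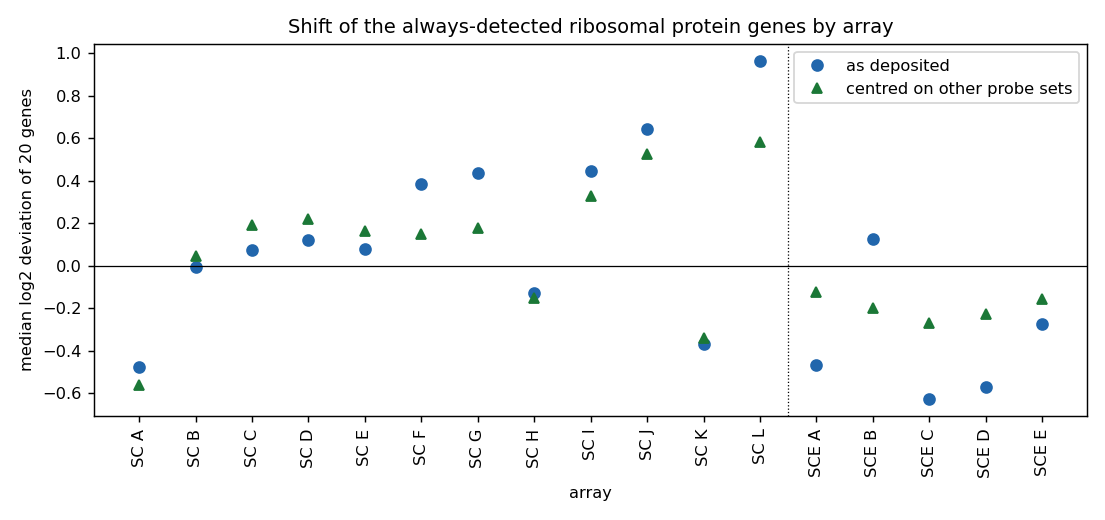
Median deviation on the log2 scale of the 20 ribosomal protein genes detected in every cell from their means over 17 arrays, for 12 single cells (SC) and 5 SCE, as deposited (circles) and centred on 121 other probe sets (triangles). Cells L and J are high and cell A is low on both scales, and the 5 SCE lie between -0.12 and -0.27 once centred.

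The 31 genes together took 2.45 to 4.56% of the summed intensity of a single-cell array (median 3.23%), against 2.16 to 3.13% of an SCE array (median 2.41%). In the 10-cell samples the share was 1.04 to 1.82% on LSP arrays (median 1.57%) and 1.14 to 2.00% on USP arrays (median 1.22%), against 0.999 to 1.32% on CD8 arrays (median 1.21%). Both arrays of USP Z, at the top of the USP range, were of the kind with positive values alone. Cell L had the highest share of any array, and the ranges of the 3 10-cell populations overlapped. Arrays of single cells and SCE were made from less RNA than the 10-cell arrays, with 1194 to 1563 probe sets at log2 9 or more, against 1737 to 2321, and no test was made between the 2 kinds.

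**Figure D5:**
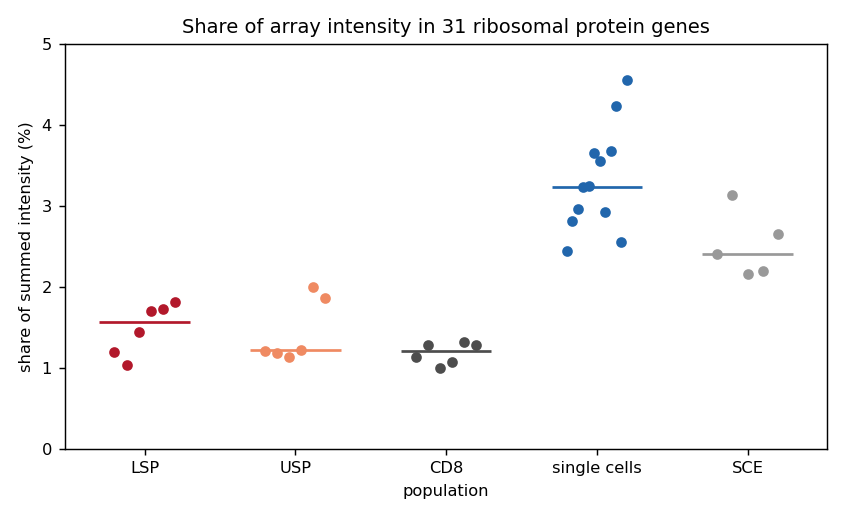
Share of the summed array intensity, in percent, held by the 31 ribosomal protein genes, 1 point per array, with a line at the median of each population. Single cells lie between 2.45 and 4.56% and SCE between 2.16 and 3.13%, while LSP, USP and CD8 arrays lie at 2.00% or less.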

How the data were processed

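RNA of 10-cell pools, single cells and SCE was amplified by global single-cell RT-PCR from the poly-A tail, so the 3′ part of each transcript was measured, and hybridised to Affymetrix arrays. The authors deposited linear intensity values. The methods describe log2 values of RMA, which the deposited intensity values are not: 9 arrays hold negative values. Gene symbols came from GEO's platform annotation. Levels were taken as log2, with a floor of 7 in the 10-cell samples, and the 2 arrays of a sample were averaged. SP against CD8 and LSP against USP were fitted in 1 limma model over the 9 samples, and single cells against SCE over 17 arrays, with probe sets at the floor (10-cell) or under log2 9 (single cells) on every array left out. P-values were adjusted by Benjamini-Hochberg over all probe sets tested. The larger spread in cells was tested by exact permutation over 6188 assignments, and the share between cells was a maximum likelihood variance component. Fits were tested on simulated data. Genes were named by rule: called genes, the highest, lowest, widest and tightest in single cells, and anemia, stalk, X-linked and extraribosomal genes, with Rps13, Rps18, Rps20, Rps27, Rpl7a, Rpl32 and the named genes of other lists added after their values were seen. The members, lists and settings were chosen with earlier results of these data known. Alternatives tried were other floors, filters, scalings and probe set rules, the array number as a block, and leaving out samples. R 4.3.3, limma 3.58.1 and Python 3.11.15 were used. Depth is limited by the number of arrays.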

Additional observations from a re-analysis of the deposited data

Results flagged for a closer look

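In all, 3 levels stood apart from the rest of their group by Dixon's test, among 45 pairs of a gene and a group that were checked, where chance gives about 1 in 20. Rpsa in SCE D was 10.55, against 12.98 to 13.71 in the other 4 SCE. Rplp0 in SCE B was 12.36, against 11.02 to 11.39, and Rpl6 in SCE B was 12.55, against 11.78 to 11.98. SCE B was also the brightest SCE over all 20 genes detected in every cell. No explanation of these levels was tested.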

How the results depend on the processing

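The count of 3 genes higher in SP than CD8 was 7 under quantile normalization, 7 with the arrays of positive values alone, 5 with duplicate arrays as a random block, 10 at an unadjusted p, 10 by the methods' t-test before adjustment and 3 after it, and 1 to 4 when a sample was left out (1 without CD8 D, 2 without LSP B, CD8 B or CD8 C). Rps10 was among the genes called in every one of these settings. Outside the main setting and the unadjusted p by limma, the share of all probe sets called is not given. A general change in calls thus cannot be told apart from a change in these genes. The count of 0 lower was 2 at an unadjusted p, 2 by the methods' t-test before adjustment, and 0 to 1 when a sample was left out (1 without CD8 D). At an unadjusted p, 1 gene was higher in LSP than USP, 2 were higher in single cells than SCE, and 2 had a larger spread in single cells. The 6 genes with a share between cells of at least 0.5 were 10 with separate means for cells and SCE and 5 to 9 when an array was left out.
Array numbers do not pair samples: 10-cell arrays with the same number in other populations correlated at -0.001 and those with another number at 0.003. With the array number as a replicate block, 5 genes were higher in SP than CD8, Rplp0 and Rpl37a being the added ones.
The median correlation over cells of 0.617 was 0.363 under quantile normalization and 0.565 to 0.651 when a cell was left out. LSP against USP with positive values alone was not run, since too few samples remain. No direction of a called gene turned under any of these alternatives. The number of arrays limits the precision of all of these values.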
